A study of Sus scrofa with 6 samples.

Results

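COL1A1, COL5A1, COL5A2, COL5A3, COL6A2, ADAMTS2, DCN, FBLN1, LAMC1 and THBS2 are 10 genes for collagens and other proteins of the dermal matrix, out of 14900 mRNAs in the deposited table. Each was found by the identifier that the lists of the study pair with its symbol, and each identifier carried the same symbol in the gene name table. All 10 were measured in all 6 samples. Poly(A) RNA was sequenced from skin of 3 adult female Bama pigs, a breed with white and black skin on the same animal. Each pig, aged 2 years, gave a white sample of the back and a black sample of the buttock, both taken 8 mm deep, with no treatment named (n = 3 samples of either skin). Color and body site cannot be told apart in these samples. A block of skin holds many cell types, so that fewer cells of a type and less RNA per cell cannot be told apart either.

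The dermis is mostly an extracellular matrix that fibroblasts secrete. Collagen I forms its fibrils, collagen V is built into them, starts their assembly and limits their width, and decorin, the product of DCN, sits on their surface. ADAMTS2 removes the amino-terminal propeptide from procollagens before fibrils form, and loss of ADAMTS2 or of collagen V makes skin fragile in animals and people.

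Values are FPKM, fragment numbers scaled by transcript length and by mapped reads, so that levels can be compared between genes. The skins were compared by a limma fit to log2(FPKM + 0.5) of all mRNAs. A log2 fold change, or log2 difference, is white minus black on that scale, and a gene passed where its adjusted p (Benjamini-Hochberg) was below 0.05 and its log2 fold change was beyond 1 in either direction. Positions are those of RefSeq on Sscrofa11.1. The color labels were checked on PMEL, a melanosome protein of melanocytes, which had 0.151 to 0.391 FPKM in white and 15.2 to 103 in black skin.

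The matrix mRNAs were mostly less abundant in white than in black skin. In all 10 genes every white value lay below every black value, and 9 of the 10 fell in white skin past both thresholds (limma, adjusted p between 0.0113 and 0.0494), while COL1A1 did not pass. Among all mRNAs, 3.62% passed in this direction, 2.62% passed in the other, and 25.7% had every white value below every black value. The median log2 fold change was -1.49 for the 10 genes and -0.31 for all mRNAs. These 9 genes are also on the list of genes that the study selected on the same samples, so their direction is not independent evidence. The adjusted p lay close to the threshold for several genes, and with any 1 sample left out fewer genes passed. The number was 3 without white skin replicate 1 (background 0.664%), 0 without white skin replicate 2 (0.047%), 1 without white skin replicate 3 (0.651%), 5 without black skin replicate 1 (3.69%), 1 without black skin replicate 2 (0.557%) and 1 without black skin replicate 3 (0.356%). Where none passed (limma, without white skin replicate 2), all 10 genes had a log2 fold change beyond 1 with an unadjusted p below 0.05, as 8.13% of all mRNAs had in this direction. With all samples the same held for the 10 genes and for 11% of all mRNAs. With the pig as a block 8 passed (background 6.42%). Of all mRNAs that passed, 539 were lower and 391 higher in white skin as deposited, 957 and 482 with the block, 217 and 483 after quantile normalization, and 281 and 570 after upper-quartile scaling. The median of all mRNAs moved to -0.03 with quantile normalization, where 8 of the 10 genes passed (background 1.46%) and their median was -1.52. After upper-quartile scaling 6 passed (background 1.89%), and with quantile normalization and the block together 5 passed (background 1.89%).

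**Figure D1:**
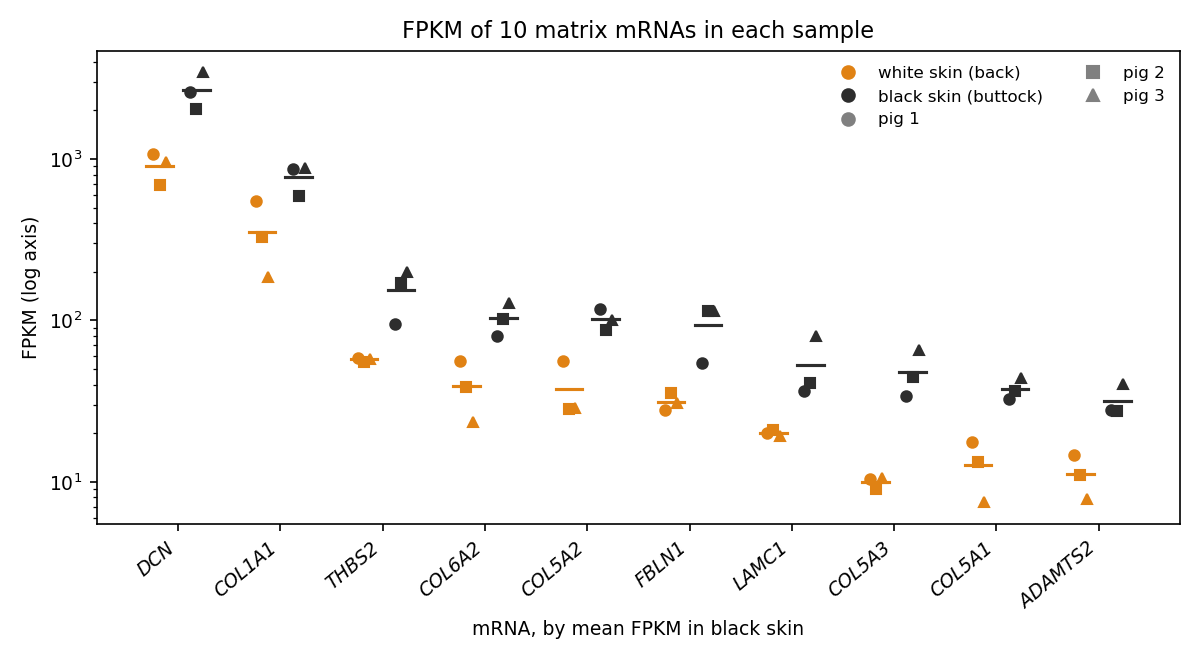
FPKM of the 10 matrix mRNAs on a log axis, with 1 point per sample (orange, white skin of the back; black, black skin of the buttock; shape, pig) and a line at the mean of each skin. The 3 white points lie below the 3 black points for every gene, and black skin replicate 3 holds the highest value for 9 of the 10.

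COL1A1 (ENSSSCG00000036135, chromosome 12, 26379087 to 26397180) encodes the α1 chain, of which each collagen I molecule holds a pair. Its FPKM was 550.1, 329.4 and 185.3 in the white samples of pigs 1, 2 and 3 and 866.9, 591.5 and 873.4 in the black samples. The white samples differed 3-fold among themselves, and the highest of them was close to the lowest black value. The log2 fold change of -1.24 ± 0.39 (SE) did not pass (limma, adjusted p = 0.0901). COL1A2, the partner chain of collagen I, had 1114, 452 and 415 FPKM in white and 2571, 1483 and 1641 in black skin. It did not pass either (log2 fold change -1.63, adjusted p = 0.0559). It passed once the pig was a block (limma, adjusted p = 0.0315) and after quantile normalization (limma, adjusted p = 0.0421).

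The 3 collagen V chains fell together. COL5A1 (ENSSSCG00000005751, chromosome 1, 273934219 to 274083264) encodes the main chain of collagen V. It had 17.7, 13.2 and 7.47 FPKM in white and 32.5, 36.7 and 43.7 in black skin. The mean was 2.94-fold higher in black skin, and the log2 fold change was -1.59 ± 0.32 (limma, adjusted p = 0.0321).

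COL5A2 (ENSSSCG00000016035, chromosome 15, 93611856 to 93981131) encodes the α2 chain, which joins the α1 chain in the usual form of collagen V. It had 55.9, 28.4 and 28.8 FPKM in white and 118, 87.1 and 100.4 in black skin. White skin replicate 1 stood well above the other white samples, and the skins still did not overlap (log2 fold change -1.49 ± 0.30, adjusted p = 0.0320). Its neighbour, 16.2 kb away, is COL3A1, which encodes collagen III, the second main fibrillar collagen of skin. COL3A1 overlapped between the skins, with 1957, 744 and 853 FPKM in white and 4063, 1687 and 2586 in black skin (log2 difference -1.28, adjusted p = 0.117).

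COL5A3 (ENSSSCG00000013667, chromosome 2, 68828197 to 68869914) encodes the third chain, present in a minor form of collagen V. It had 10.3, 8.97 and 10.6 FPKM in white and 34.2, 44.5 and 65.3 in black skin. The white samples lay within 2 FPKM of each other and the lowest black sample was over 3 times the highest white one. The log2 fold change of -2.17 ± 0.27 was the largest of the 10 genes (limma, adjusted p = 0.0113). In every alternative run except leaving out white skin replicate 2 (adjusted p = 0.0604) it remained past the thresholds.

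ADAMTS2 (ENSSSCG00000024043, chromosome 2, 79182901 to 79406879) had 14.7, 11.0 and 7.84 FPKM in white and 27.8, 27.3 and 40.2 in black skin. The difference was larger than the spread in either skin (log2 fold change -1.48 ± 0.29, adjusted p = 0.0295). Among the 10 genes, ADAMTS2 had the profile over the 6 samples nearest to their mean profile, to which it contributes. Its root mean square distance was 0.103 on the log2 scale.

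DCN (ENSSSCG00000000915, chromosome 5, 91678601 to 91713925) was the most abundant of the 10. It had 1067, 689 and 955 FPKM in white and 2596, 2034 and 3443 in black skin. By mean FPKM it ranked 85 among all mRNAs in white but 14 in black skin. Its black mean was 2.98 times the white mean (log2 fold change -1.56 ± 0.29, adjusted p = 0.0278). DCN alone held 0.190% ± 0.0390 (SD, n = 3) of the summed mRNA FPKM of white skin and 0.618% ± 0.202 of that of black skin (p = 0.1, two-sided exact permutation test, where 3 samples against 3 cannot go lower).

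COL6A2 (ENSSSCG00000028022, on an unplaced scaffold, 595471 to 630235) encodes a chain of collagen VI, which forms beaded microfibrils between the large fibrils. It had 56.2, 38.5 and 23.3 FPKM in white and 79.7, 101.5 and 128.1 in black skin. The log2 fold change was -1.44 ± 0.34 (limma, adjusted p = 0.0468), and the call was lost when the pig was a block (adjusted p = 0.0575). The pigs differed widely, with black over white at 1.42 in pig 1, 2.64 in pig 2 and 5.49 in pig 3. Of its partner chains, COL6A3 fell by 1.01 on the log2 scale (adjusted p = 0.0321), and COL6A1 did not pass (-1.20, adjusted p = 0.0747) although its skins did not overlap.

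FBLN1 (ENSSSCG00000000010, chromosome 5, 3839498 to 3927178) encodes fibulin-1, a glycoprotein of elastic fibres and basement membranes. It had 27.7, 35.4 and 30.7 FPKM in white and 54.6, 113.8 and 114.3 in black skin. Black skin replicates 2 and 3 were about alike and replicate 1 was far lower, yet above all white samples (log2 fold change -1.51 ± 0.31, adjusted p = 0.0345).

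LAMC1 (ENSSSCG00000015555, chromosome 9, 124283668 to 124405967) encodes the γ1 chain shared by most laminins of basement membranes. It had 20.0, 21.0 and 19.3 FPKM in white and 36.6, 40.8 and 80.4 in black skin. The white samples were nearly equal, and 1 black sample was about 2 times the others. This was the weakest of the 9 calls (log2 fold change -1.28 ± 0.31, adjusted p = 0.0494), and it was lost after quantile normalization (adjusted p = 0.0666). LAMB1, a β chain that pairs with γ1, overlapped between the skins, at 24.2, 26.5 and 22.4 FPKM in white and 18.9, 13.7 and 27.6 in black skin (log2 difference 0.33, adjusted p = 0.454). The ratio of LAMC1 to LAMB1 was therefore 0.792 to 0.862 in white and 1.94 to 2.97 in black skin, without overlap (difference of -1.63 on the log2 scale, exact permutation test, two-sided, p = 0.1). This ratio was picked out after its values were seen.

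THBS2 (ENSSSCG00000004012, chromosome 1, 854473 to 882467) encodes thrombospondin-2, a matricellular protein whose loss in mice gives irregular collagen fibrils and fragile skin. It had 58.2, 55.5 and 58.0 FPKM in white and 95.2, 170.4 and 198.7 in black skin. White values varied little and black values 2-fold (log2 fold change -1.36 ± 0.29, adjusted p = 0.0358).

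**Figure D2:**
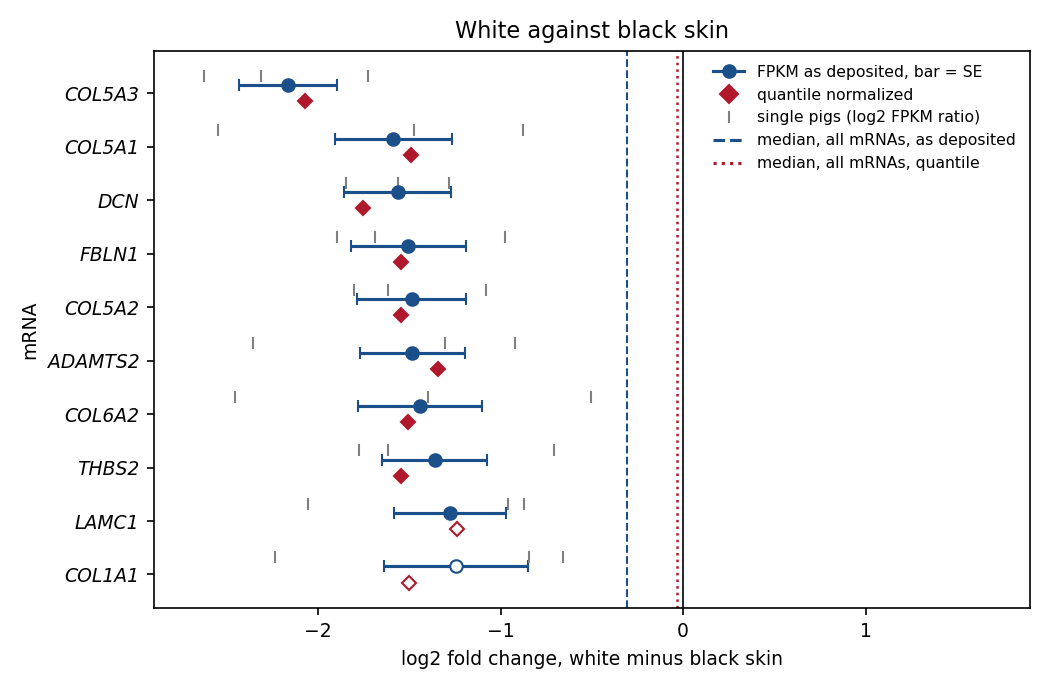
Log2 fold change of the 10 genes, white minus black skin, as deposited (blue circles, bars for the SE) and after quantile normalization (red diamonds), with single pigs as grey ticks and the medians of all 14900 mRNAs as lines; open symbols did not pass both thresholds. All points and all pigs lie left of 0, and COL5A3 lies farthest left.

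In each pig the white sample was below the black sample for all 10 genes, as it was for 41.6% of all mRNAs, and the difference was largest in pig 3. Black over white was 3.43 for THBS2 and 3.49 for COL5A2, the smallest in that pig, and 6.17 for COL5A3. In pig 1 it ran from 1.42 for COL6A2 to 3.31 for COL5A3. The highest value was in black skin replicate 3 for 9 genes and in black skin replicate 1 for COL5A2. The lowest was in white skin replicate 3 for 5 genes, in white skin replicate 2 for 4 and in white skin replicate 1 for FBLN1. Together the 10 genes held 0.403%, 0.270% and 0.265% of the summed mRNA FPKM in white skin and 0.849%, 0.721% and 1.25% in black skin (p = 0.1, two-sided exact permutation test). Without DCN the means were 0.122% and 0.320%.

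The order of the levels was nearly shared by the skins. DCN was above COL1A1 and COL1A1 above THBS2 without overlap in both. THBS2, COL6A2, COL5A2 and FBLN1 followed, each overlapping its neighbour. In white skin FBLN1, LAMC1 and COL5A1 were in turn separated, and COL5A1, ADAMTS2 and COL5A3 at the lower end overlapped. In black skin all neighbours from THBS2 downward overlapped. COL5A3 was the lowest of the 10 in white skin by its mean, at 9.96 ± 0.866 FPKM (SD, n = 3), and stood above COL5A1 and ADAMTS2 in black skin at 48.0 ± 15.8. The ratio of COL5A3 to COL5A1 was 0.584, 0.680 and 1.41 in white and 1.05, 1.21 and 1.49 in black skin, which overlapped (p = 0.3 by the exact permutation test).

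Ratios within a sample ask whether the genes differed in step with COL1A1. None of the 9 ratios to COL1A1 separated the skins, and adjusted over the 9 the exact permutation p was 0.75 to 0.90. DCN over COL1A1 was 1.94, 2.09 and 5.15 in white and 3.00, 3.44 and 3.94 in black skin, so that white skin replicate 3, where COL1A1 was lowest, had the highest ratio of all. The difference was -0.32 ± 0.47 (SE) on the log2 scale (exact permutation test, two-sided, p = 0.5). The summed collagen V chains over COL1A1 were 0.153, 0.154 and 0.253 in white and 0.213, 0.285 and 0.240 in black skin, and also overlapped (difference -0.43 ± 0.27, p = 0.3 by the exact permutation test).

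Of the single collagen V chains, COL5A3 differed most from COL1A1. Its ratio was 0.0188, 0.0272 and 0.0570 in white and 0.0394, 0.0753 and 0.0747 in black skin, lower in white skin in 3 of 3 pigs, with a difference of -0.98 ± 0.56 that was not separated from the spread (exact permutation test, p = 0.2). COL5A1 over COL1A1 was 0.0322 to 0.0403 in white and 0.0374 to 0.0621 in black skin (difference -0.39 ± 0.24, lower in 3 of 3 pigs, exact permutation p = 0.3). COL5A2 over COL1A1 was 0.0863 to 0.155 in white and 0.115 to 0.147 in black skin (difference -0.26 ± 0.27, lower in 2 of 3 pigs, exact permutation p = 0.5). ADAMTS2, COL6A2, FBLN1, THBS2 and LAMC1 differed from COL1A1 by -0.28, -0.21, -0.27, -0.12 and -0.05, each with overlap. With 3 samples per skin the exact permutation test cannot go below p = 0.1, so that no difference of any size could have reached 0.05. The results therefore do not show that the ratios were equal. Set over COL1A2 in place of COL1A1, a choice made after seeing the data, 8 of the 9 differences turned to values between 0.0021 and 0.34, and only that of COL5A3 remained below 0, at -0.59. Over COL3A1, chosen in the same way, all 9 stayed below 0, from -0.94 for COL5A3 to -0.018 for LAMC1.

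**Figure D3:**
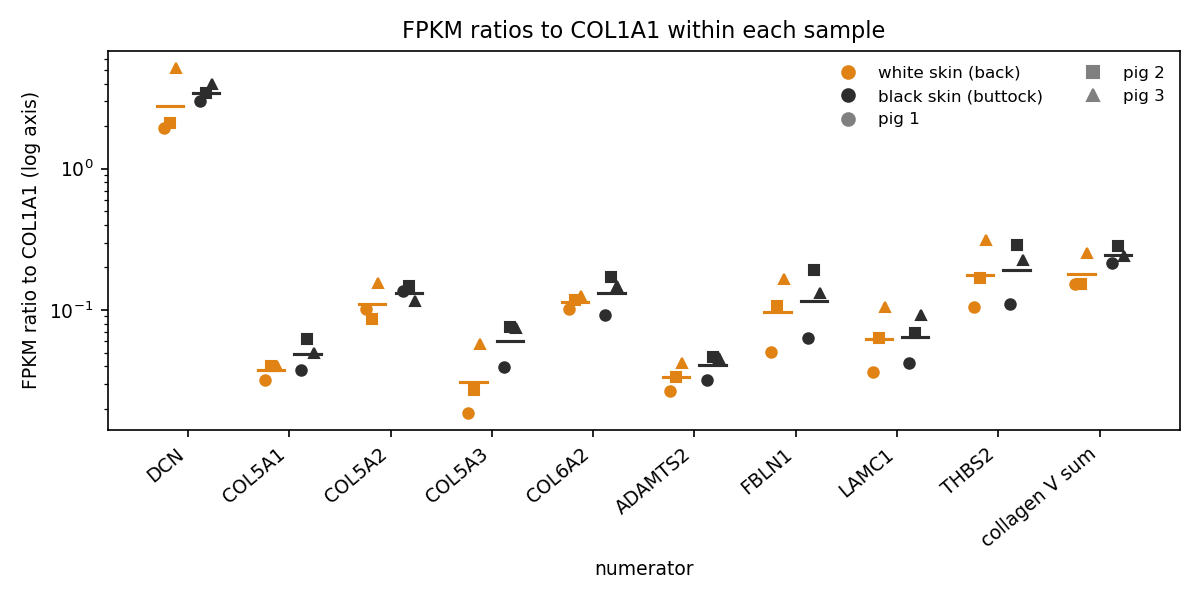
FPKM ratio of each gene, and of the summed collagen V chains, to COL1A1 within each sample, on a log axis (orange, white skin; black, black skin; shape, pig; line, mean of the log2 ratios). White and black points overlap for every ratio, and the white sample of pig 3 is the highest white point in each.

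The other genes of the matrix were read from 10 lists, of which 146 of 165 genes were measured under their names. Of these, 39 fell past both thresholds in white skin and 1 rose, and 135 had a log2 fold change below 0 (69.1% of all mRNAs did). Without the 10 genes, 30 of 136 fell (22.1%, beside 3.62% of all mRNAs) and 1 rose. After quantile normalization 30 of the 146 fell (background 1.46%), with 3 elastic fibre genes, 3 proteases and inhibitors and 1 basement membrane gene among them. With 1 sample left out, 15 fell without white skin replicate 1 (background 0.664%), 1 without white skin replicate 2 (0.047%) and 5 without white skin replicate 3 (0.651%). Without black skin replicate 1, 2 or 3 the number that fell was 33 (3.69%), 6 (0.557%) and 7 (0.356%). Without black skin replicate 1 or 3, 1 rose as well.

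Fibrillar collagens showed a fall in 3 of 10 measured chains (3.62% of all mRNAs did), all of them collagen V, with a list median of -1.26. With the block 4 of the 10 fell (6.42% of all mRNAs), and after quantile normalization 4 did (1.46%). COL1A2 was among them in both settings. Of 5 collagen VI chains 2 fell, COL6A2 and COL6A3 (3.62% of all mRNAs did), and 1 with the block (6.42%). Of 8 fibril-associated and transmembrane collagens 3 fell (3.62% of all mRNAs did), and 1 after quantile normalization (1.46%). COL12A1, which decorates fibrils, was among the 3, at 3.87, 4.04 and 4.61 FPKM in white and 13.3, 13.5 and 39.7 in black skin (log2 difference -2.09, adjusted p = 0.0315). So was COL16A1 (-1.60, adjusted p = 0.0303). After quantile normalization COL16A1 was the one that passed (limma, adjusted p = 0.0349), and COL12A1 did not (limma, adjusted p = 0.0556).

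Of 24 genes for procollagen processing and crosslinking 6 fell (3.62% of all mRNAs did), and 10 with the pig as a block (6.42%). LOXL4, a lysyl oxidase of the crosslinking family, had 2.41, 1.97 and 4.195 FPKM in white and 11.3, 24.4 and 38.5 in black skin, the largest change of the list (log2 fold change -2.80, adjusted p = 0.0199). P4HA3, a prolyl hydroxylase subunit, fell by 1.85 on the log2 scale (adjusted p = 0.0213). PCOLCE, which enhances removal of the other propeptide, fell by 1.54 (adjusted p = 0.0345).

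Small leucine-rich proteoglycans, the family of DCN, had the lowest median of the 10 lists as deposited, -1.57, while after quantile normalization theirs was -1.42 and that of the fibrillar collagens -1.50. All 12 were measured, 6 fell (3.62% of all mRNAs did), and 11 had every white value below every black value (25.7% of all mRNAs). FMOD, which binds collagen I fibrils, had 5.41, 4.15 and 4.51 FPKM in white and 20.9, 25.0 and 24.8 in black skin, with narrow spread in both (log2 fold change -2.21, adjusted p = 0.00780). PRELP fell by 2.68 (adjusted p = 0.0307), although 1 black sample, at 93.9 FPKM, lay far above the other black samples at 20.9 and 24.5.

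Of 17 elastic fibre genes and fibulins 5 fell (3.62% of all mRNAs did), FBLN1 among them. FBN1, the main protein of microfibrils, fell by 1.51 (adjusted p = 0.0453), a call lost after quantile normalization (limma, adjusted p = 0.0915). Of 19 basement membrane genes 2 fell (3.62% of all mRNAs did), and 4 with the block (6.42%). Beside LAMC1, COL15A1 fell, with 20.0, 16.2 and 13.5 FPKM in white and 33.9, 42.0 and 38.4 in black skin (log2 difference -1.19, adjusted p = 0.0279). LAMB2, another laminin β chain, did not pass (-1.46, adjusted p = 0.0504) but passed with the block (adjusted p = 0.0464).

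Of 19 matricellular genes 6 fell and 1 rose (3.62% and 2.62% of all mRNAs did). SPARCL1 was the one that rose, at 154, 145 and 157 FPKM in white and 25.0, 39.8 and 70.9 in black skin (log2 difference 1.86, adjusted p = 0.0278). Its relative SPARC, a collagen-binding protein and the most abundant of the list, had 2268, 993 and 1160.3 FPKM in white and 3541, 2366 and 3921 in black skin and did not pass (-1.22, adjusted p = 0.0848). SPP1, or osteopontin, fell by 2.52 (adjusted p = 0.0336), a call lost after quantile normalization (limma, adjusted p = 0.0540).

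Of 19 matrix proteases and inhibitors 5 fell (3.62% of all mRNAs did), and the genes that passed were on both sides of turnover. MMP2 fell by 1.68 (adjusted p = 0.0401) and MMP9 by 1.73 (adjusted p = 0.0424), both gelatinases that cut denatured collagen. TIMP1 and TIMP3, which inhibit such enzymes, fell as well, by 1.41 and 1.17 (named after their values were seen). After quantile normalization MMP9 lost the call (limma, adjusted p = 0.0975), and MMP2, TIMP1 and TIMP3 kept it. Of 13 receptors for collagen and laminin only MRC2, which takes up collagen fragments, fell (-1.64, adjusted p = 0.0201). With the block 3 did (6.42% of all mRNAs, and 3.62% without it). ITGB1, the shared β1 integrin chain, had 83.5, 69.2 and 100.03 FPKM in white and 63.8, 66.4 and 106.02 in black skin, with overlap (log2 fold change 0.12, adjusted p = 0.774).

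**Figure D4:**
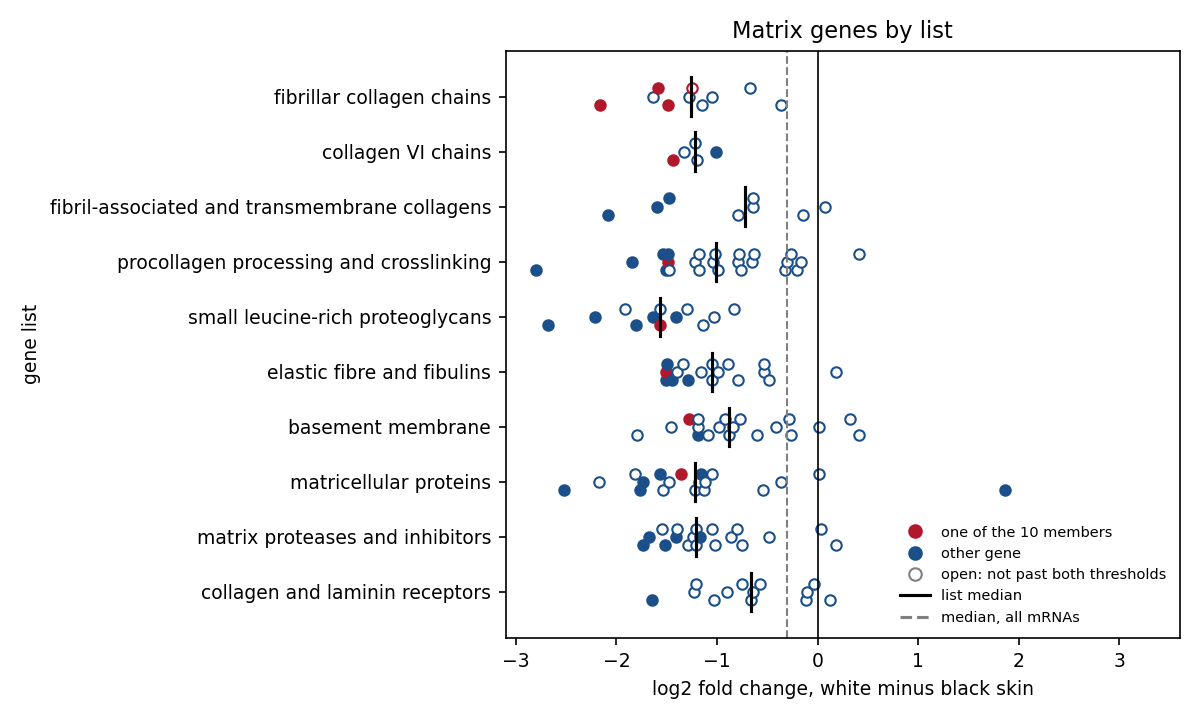
Log2 fold change, white minus black skin, of each measured gene of the 10 matrix lists (red, the 10 genes described; blue, other genes; filled, past both thresholds; black bar, list median; dashed line, median of all mRNAs at -0.31). Every list median lies left of the median of all mRNAs, and SPARCL1 is the only filled point right of 0.

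Markers of other cell types also differed between the skins, and their part in the values above was not tested. Fibroblast markers outside the matrix summed to 399 to 651 FPKM in white and 630 to 1092 in black skin, which overlapped. All 9 measured had a log2 fold change below 0 (69.1% of all mRNAs did). Their median was -1.03, beside -0.31 for all mRNAs. In 4 of them every white value lay below every black value (25.7% of all mRNAs). Of the 9, 1 fell (3.62% of all mRNAs did), and 2 with the block (6.42%). The 1 was PDGFRB, named after its values were seen, at 11.0 to 19.4 FPKM in white and 39.9 to 74.5 in black skin (log2 difference -1.95, adjusted p = 0.0199). VIM, the most abundant, had 266 to 363 FPKM in white and 322 to 583 in black skin (-0.45, adjusted p = 0.306).

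Smooth muscle markers went the other way, with a sum of 3953 to 6231 FPKM in white and 515 to 1581 in black skin. Of 6, 5 rose in white skin (2.62% of all mRNAs did), and 2 after quantile normalization (483 of 14900 mRNAs). TAGLN, an actin-binding protein, had 1364 to 2097 FPKM in white and 316 to 701 in black skin. Skeletal muscle was represented by 3 named genes of 10, of which 1 rose (2.62% of all mRNAs did). This was CKM, at 28.0 to 66.2 FPKM in white and 1.40 to 4.66 in black skin. Adipocyte markers summed to 177 to 565 FPKM in white and 937 to 2146 in black skin, and 6 of 9 fell (3.62% of all mRNAs did). FABP4, a fatty acid carrier, was the highest of these, at 96.9 to 409 FPKM in white and 650.04 to 1353 in black skin.

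Endothelial markers summed to 52.2 to 54.8 FPKM in white and 98.2 to 220 in black skin. Of 6, 3 fell (3.62% of all mRNAs did), PECAM1 with 18.8 to 25.7 against 54.1 to 107.9 FPKM. With the block 5 fell (6.42% of all mRNAs), and after quantile normalization 1 did (1.46%). Of 6 melanocyte markers 5 fell (3.62% of all mRNAs did). Hair follicle markers summed to 180, 0.224 and 127 FPKM in white and 10223, 459 and 235 in black skin, so that white skin replicate 2 held almost none and black skin replicate 1 far more than any other. None of the 9 passed (limma). With a log2 fold change beyond 1, 6 had an unadjusted p below 0.05 (11% of all mRNAs did in this direction). With the block 5 fell (6.42% of all mRNAs). Keratinocyte markers overlapped (7 of 12 measured, KRT5 and KRT14 not among them), at 443 to 1167 FPKM in white and 921 to 1282 in black skin, and none passed, adjusted or not (limma). Leukocyte markers overlapped at 16.1 to 297 and 35.3 to 116 FPKM, mostly through LYZ, and 1 of 7 fell (3.62% of all mRNAs did). With the block 2 fell (6.42% of all mRNAs). After quantile normalization 0 fell by limma (1.46% of all mRNAs did). There 2 had an unadjusted p below 0.05 with a log2 fold change beyond 1 (809 of 14900 mRNAs in this direction).

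**Figure D5:**
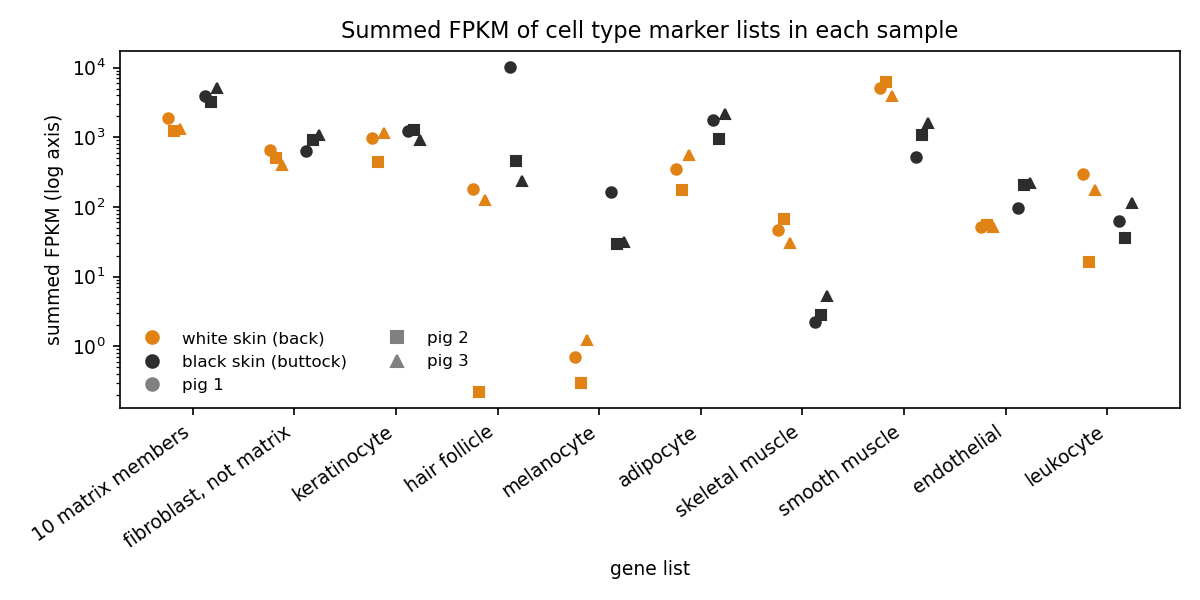
Summed FPKM of the 10 matrix genes and of 9 marker lists in each sample, on a log axis (orange, white skin; black, black skin; shape, pig). Smooth and skeletal muscle sums are higher in all white samples, those of the matrix genes, adipocytes, endothelium, melanocytes and hair follicle are higher in all black samples, and those of fibroblasts, keratinocytes and leukocytes overlap.

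Of 8063 mRNAs with a mean FPKM of at least 5, 6999 had a symbol and lay outside the 10 genes, and only these were ranked by profile. Among the 6999, the nearest over the 6 samples to the mean profile of the 10 genes were FKBP9, NUAK1, GASK1B, PTPRS and PDGFRL. Their root mean square distances were 0.109, 0.134, 0.136, 0.143 and 0.148 on the log2 scale, where the median of the 8063 was 0.774. The 10 genes themselves, which made the profile, ranged from 0.103 to 0.388, with COL5A3 and COL1A1 the farthest. FKBP9, a prolyl isomerase of the endoplasmic reticulum, had 44.6, 34.1 and 31.2 FPKM in white and 80.9, 97.3 and 109.1 in black skin, with the 6 samples in the same order as in the mean profile.

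Within 100 kb of the 10 loci, 22 lncRNAs were listed, 7 of them near THBS2 and 4 near COL5A1, none overlapping a locus, and none near ADAMTS2. All were low, at 1.43 FPKM or less, and 20 were listed at 0 in at least 1 sample. In 5 the skins did not overlap (12.2% of all 7566 lncRNAs), 4 lower and 1 higher in white skin. The only one of these above 0 in every sample was TCONS_00059116, 12.0 kb from COL5A3, named after its values were seen. It had 0.299, 0.381 and 0.352 FPKM in white and 0.659, 1.26 and 0.844 in black skin (p = 0.1, two-sided exact permutation test).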

How the data were processed

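The authors aligned strand-specific paired-end reads to Sscrofa11.1 (Ensembl release 90) and deposited FPKM from StringTie 1.3.3. The study names TopHat 2.1.0 as the aligner and the submitters' processing notes list HISAT2 2.0.4. They kept mRNAs above 0.5 FPKM and lncRNAs above 0.1 in at least 1 sample. The FPKM of the mRNAs summed to 408598 to 501424 per sample. The study gives read totals per library, which were not used here, but FPKM hold no counts, so the depth behind a single value is unknown and no counting interval is given. limma 3.58.1 (R 4.3.3, with trend) was run on log2(FPKM + 0.5) of all 14900 mRNAs without the pig, in place of the study's Cuffdiff, which needs reads. On simulated data it recovered 44.5% of 200 planted log2 changes of 1.5 and 89% of 200 of 3. False calls made up 2.2% and 5.32% of the calls. A change of about 1.5 was thus often missed in the simulated data. Noise was drawn independently for each mRNA and only 200 changes were planted, so these shares need not hold for the real comparison. Symbols were found for 12236 mRNAs (82.1%). Exact permutation tests ran in Python 3.11.15 with SciPy 1.17.1.

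The sample titles number the samples of each skin without naming a pig, and samples of the same number were taken as the same pig. Deviations of same-pig samples from the skin means correlated across mRNAs at 0.208, 0.360 and 0.204, so the block for the pig is printed where it changes a call. The genes, lists and tests were chosen with earlier results of these data known. Genes outside the 10 were named by a rule: partner chains, the most abundant gene of each list, the pair with the largest change per matrix list among those past both thresholds and of 1 direction in the 3 pigs, and the 5 nearest profiles. Alternatives were other pseudocounts (0.1 and 1), the block, 2 other scalings, no trend, a mean FPKM of at least 1, unadjusted p, each sample left out, and, added after seeing the data, other denominators and the block with quantile normalization.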

Additional observations from a re-analysis of the deposited data

How the results depend on the processing

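The log2 fold changes of the 10 genes kept their sign in all 140 alternative fits. Of the 126 fits of the 9 genes that had passed, 55 lost the call. The number past both thresholds was 9 as reported, 8 with the pig as a block (replicate block) and 5 with the block and quantile normalization together. It ranged from 0 to 5 with 1 sample left out. The matrix lists held 40 genes past the thresholds in either direction, 39 of them lower in white skin (background 3.62%). With the block they held 54, of which 53 were lower (6.42%), and after upper-quartile scaling 26, of which 25 were lower (1.89%). At an unadjusted p they held 87 (86 lower in white skin, where 11% of all mRNAs were). With 1 sample left out they held 1 to 34, where 0.047% to 3.69% of all mRNAs passed as lower. Counts printed without their value under the block moved by no more than 1.5 times, while the share of all mRNAs that fell moved from 3.62% to 6.42%. With the block, the matrix genes outside the 10 that fell went from 30 to 45 and matricellular genes from 6 to 9. Proteases and inhibitors went from 5 to 7 and adipocyte markers from 6 to 8.

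Ratios to COL1A1 changed sign under some settings, and the cause was not tested. Over COL1A2 the differences were 0.0702 for DCN, 0.0021 for COL5A1, 0.13 for COL5A2, 0.18 for COL6A2, 0.11 for ADAMTS2, 0.12 for FBLN1, 0.34 for LAMC1 and 0.27 for THBS2. After quantile normalization they were 0.013 for COL5A1, 0.16 for ADAMTS2 and 0.26 for LAMC1. With 1 sample left out they ranged from -0.72 to 0.19 for FBLN1, -0.42 to 0.34 for LAMC1 and -0.53 to 0.25 for THBS2. The exact tests of 3 against 3 samples cannot go below p = 0.1, and sign tests over 3 pigs not below 0.25, so these differences could not have passed 0.05.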
